A study of Mus musculus with 2 samples.

Results

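Memory-like CD8 T cells of MC38 tumours were taken as the barcodes that carried at least 2 unique molecular identifiers (UMIs) of Cd3d, Cd3e and Cd3g together, at least 2 of Cd8a and Cd8b1, none of Cd4, at least 2 of Ly6c2, at least 2 of Cxcr3 and Ccl5, and none of the checkpoint receptor genes Pdcd1, Lag3 and Havcr2. C1qa, C1qb and C1qc, and likewise Cd79a, Cd79b and Ms4a1, had to stay under 0.1% of a barcode's UMIs. This gate found 1133 of 25200 barcodes, 907 in the PBM library and 226 in the control library. The gate genes chose the cells, so their levels are given as descriptions. Both libraries came from CD45-positive cells sorted out of subcutaneous MC38 tumours, a mouse colon carcinoma line, in C57BL/6 mice whose genotype label is WT. PBM is photobiomodulation, a treatment with light, given daily from day 7, and tumours were taken on day 14. The cell type label reads tumor cells, although the sort was for CD45. Each group is 1 library of cells pooled within its condition, and the number of animals in a pool is not given in the labels. Treatment, pool and library therefore cannot be told apart, no test was possible, and the 95% intervals printed beside values reflect counting error alone.

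CD8 T cells that have met antigen, or that have expanded on homeostatic cytokines, keep a memory state in which the surface protein Ly6C, the chemokine receptor CXCR3 and stored Ccl5 transcript are common. CXCR3 draws T cells towards the interferon-induced chemokines CXCL9 and CXCL10, and Ccl5 encodes a chemokine that memory CD8 T cells release on stimulation. Memory cells share Tcf7, Lef1 and lymph node homing genes with naive cells, and share T-bet, interleukin 2 and 15 receptor beta chain and killer lectin receptors with effector cells. Exhausted cells in tumours instead carry several checkpoint receptors, which the gate leaves out.

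The members held 9298096 UMIs in the PBM library and 2544820 in the control library, with medians of 9076 and 5539.5 UMIs and of 2075 and 1727 genes per barcode. In the control library 22 members, with a median of 52612 UMIs, drew 0.1% or more of their UMIs from 16 connective-tissue genes such as Sparc, Col3a1 and Bgn, and they held 45.5% of the UMIs of all control members. Few members lay near the limit, since 196 of 226 control members were under 0.05%, 8 lay between 0.05% and 0.1%, 1 between 0.1% and 0.2%, and 21 at 0.2% or more. In the PBM library 1 member reached that level, and 1 further member drew 24.0% of its UMIs from plasma-cell genes such as Ighg2c and Jchain. These 24 barcodes are called mixed. Counts and medians of gene groups are given over all members and over the 905 PBM and 204 control members that are not mixed, a limit set after the data were seen. Levels of single genes leave the mixed barcodes out unless all members are named. The libraries share 1991 barcode names, which are serial numbers and not nucleotide sequences, so shared cells cannot be read from them. Doublet calls by Scrublet took 11 PBM and 4 control members.

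**Figure D1:**
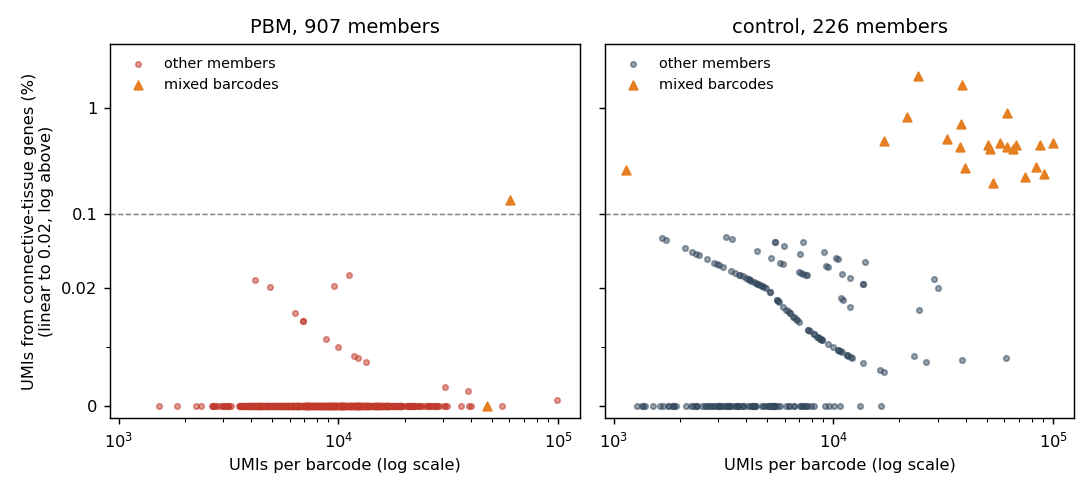
Share of UMIs from 16 connective-tissue genes against UMIs per barcode for every memory-like CD8 T cell, PBM at left and control at right. Triangles are mixed barcodes, circles the other members, and the dashed line is the 0.1% limit. The 22 control triangles stand above the limit, most of them at high depth, and 2 of 907 PBM members are mixed.

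The T cell label fitted the cells' defining genes outside the gate. Without mixed barcodes, Trac, the T cell receptor alpha constant gene, stood at 509 counts per 1000000 UMIs (CPM, summed over the cells of a library) in PBM members and 562 CPM in control members, against 65.3 CPM in B cells of the PBM library. Ptprc, which encodes CD45, stood at 541 and 720.1 CPM. Of the markers that were not part of the gate, Samd3 was at 38.7 CPM in PBM members against 0.794 CPM in naive-like CD8 cells of that library, and at 29.6 CPM in control members against 10.0 CPM in exhausted-effector CD8 cells of that one. Sidt1 followed the same order, at 194 against 86.4 CPM in the PBM library and 114 against 25.0 CPM in the control library. Cd160, a receptor shared with killer cells, was at 64.5 against 31.7 CPM in the PBM library, but at 137 CPM in control members against 232 CPM in exhausted-effector cells, so it marked them less than those cells. Cd4 was at 0 by the gate. Ly6c2 itself, a gate gene, stood at 2028 CPM in PBM members and 1819 CPM in control members. Its neighbour Ly6c1 is 97.6% identical over 822 aligned bases of the longest coding transcripts, and 18.3% of the 90-base windows of Ly6c2 also occur in Ly6c1, so reads may be split between them. Ly6c1 had 28.3 CPM in PBM members and 38.2 CPM in control members, but 202 CPM in control members when the mixed barcodes were kept.

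RNA of other cells was present in both libraries at different levels. All 12 B cell markers had UMIs in PBM members, with a summed level of 3238 CPM (1305 to 15322 CPM per barcode) without mixed barcodes, and 11 of 12 had UMIs in control members, at 1297 CPM (0 to 13893), with Fcmr at 0. All 12 macrophage and monocyte markers had UMIs in both libraries, at 58.9 CPM (0 to 10542) in PBM members and 2044 CPM (0 to 8942) in control members. All 10 natural killer cell markers were present as well, at 369.9 CPM (0 to 16343) in PBM members and 3499 CPM (0 to 44166) in control members, and this list holds genes such as Gzma and Eomes that CD8 T cells also use. For the 8 connective-tissue markers the summed level was 0.544 CPM in PBM members and 49.0 CPM in control members, against 1.51 and 849 CPM with mixed barcodes. A free RNA estimate from 13 genes of B cells, myeloid cells and connective tissue put the outside RNA of the members without mixed barcodes at 20.1% of the whole-library level in the PBM library and 16.8% in the control library. Over all members, with the plasma-cell barcode kept, it was 40.6% and 19.7%. Results with free RNA subtracted used these values over all members, so more was taken from the PBM levels. The part of this RNA in the gene differences below was not tested except where a value is given.

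The memory-like cells made up 6.50% of PBM barcodes (907 of 13962, 6.09 to 6.92) and 2.01% of control barcodes (226 of 11238, 1.76 to 2.29). Among CD8 T cells, defined by the same Cd3, Cd8, Cd4, C1q and B cell conditions, they made up 29.2% in the PBM library (907 of 3110, 27.6 to 30.8) and 19.4% in the control library (226 of 1167, 17.1 to 21.8). A gate on UMIs depends on depth. With every barcode thinned to 2000 UMIs before gating, the share of CD8 T cells was 11.3% in the PBM library (222 of 1962, 9.95 to 12.8) and 16.6% in the control library (120 of 724, 13.9 to 19.5), the opposite order. At 1000 UMIs it was 5.81% (41 of 706, 4.20 to 7.80) and 10.5% (41 of 391, 7.63 to 14.0). Thinning to 2000 UMIs left out 1013 PBM and 1602 control barcodes. The share of all barcodes was 1.71% and 1.25% at 2000 UMIs, and 0.294% and 0.365% at 1000 UMIs. No order of the libraries can be read from these shares. The share of all barcodes turned only at 1000 UMIs, where the intervals overlap. The share of CD8 T cells turned with depth and with the checkpoint condition. With that condition left out, 30.2% of PBM CD8 T cells (940 of 3110) met the Ly6c2 and the Cxcr3 or Ccl5 conditions at own depth. In the control library 52.0% (607 of 1167) did so. Thinning can also remove checkpoint receptor UMIs, and the part of this in the turn was not tested. As a background, 21 of 2061 B cells of the PBM library (1.02%, 0.632 to 1.55) and 1 of 167 of the control library (0.599%, 0.015 to 3.29) met the Ly6c2 and the Cxcr3 or Ccl5 conditions, with median depths of 3975 and 2686 UMIs. Natural killer cells met both conditions in 15.7% (8 of 51) and 16.8% (122 of 726) of barcodes.

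**Figure D2:**
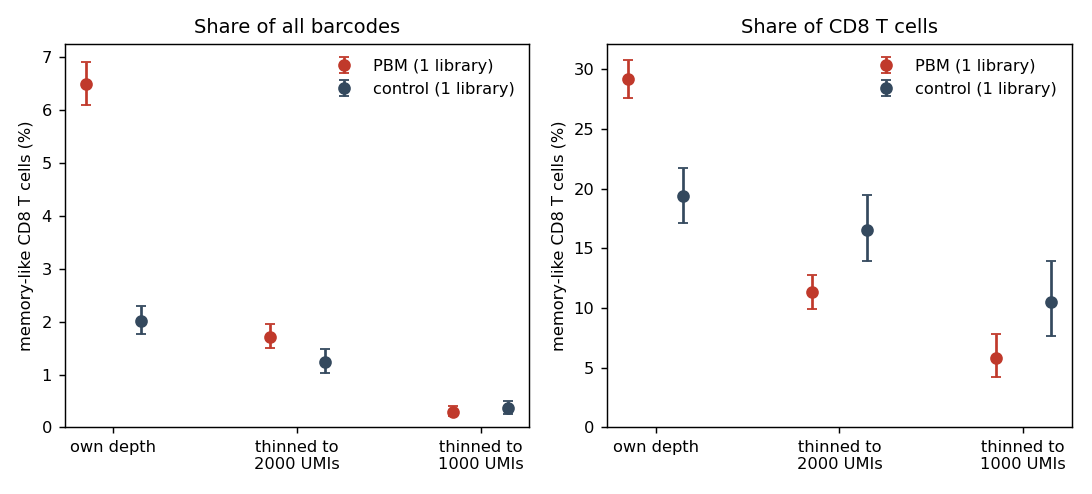
Memory-like CD8 T cells as a share of all barcodes (left) and of CD8 T cells (right) at each barcode's own depth and after thinning to 2000 and 1000 UMIs, PBM left of control, with exact 95% intervals for 1 library each. At own depth 29.2% of PBM and 19.4% of control CD8 T cells pass the gate, and at 2000 UMIs 11.3% and 16.6%.

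Cells that missed the gate by 1 condition differed in kind between the libraries. In the PBM library 777 barcodes lacked only Cxcr3 or Ccl5, 199 only Ly6c2 and 33 only the absence of checkpoint receptor UMIs. A further 165 missed only on the limit for Cd79a, Cd79b and Ms4a1, 139 only on Cd8a and Cd8b1 and 121 only on Cd4. In the control library 35 lacked only Cxcr3 or Ccl5, 79 only Ly6c2 and 381 only the absence of checkpoint receptor UMIs. There 303 missed only on Cd8a and Cd8b1, 9 only on Cd4 and 0 only on the limit for Cd79a, Cd79b and Ms4a1. The largest of these groups was cells low in Ccl5 and Cxcr3 in the PBM library, and cells with checkpoint receptor UMIs in the control library. Just inside the Ly6c2 limit, 57 PBM and 23 control barcodes that are not mixed had exactly 2 Ly6c2 UMIs, and just outside it 93 PBM and 20 control barcodes had 1. Samd3 stood at 18.2 CPM inside and 18.7 CPM outside in the PBM library (9 and 14 UMIs), and in the control library it rested on 1 UMI inside and 2 outside. Sidt1 stood at 121 CPM inside and 126 CPM outside in the PBM library (60 and 94 UMIs), and at 136 CPM inside and 24.0 CPM outside in the control library (13 and 3 UMIs). With mixed barcodes kept, 34 control barcodes lay inside and 23 outside, and their Sidt1 level was 19.4 and 15.3 CPM.

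Between libraries, genes of the naive and stem-like state were higher in PBM members, and genes of killing, of secreted effectors and of killer receptors were lower. Over all members 766 of 11324 genes were at least 2-fold higher in the PBM library (6.76%) and 2581 at least 2-fold lower (22.8%), with a median log2 ratio of -0.32. With median-of-ratios scaling the counts were 1267 and 1916. Without mixed barcodes 649 of 10478 genes were at least 2-fold higher (6.19%) and 1192 at least 2-fold lower (11.4%), with a median of -0.22. Since the mixed barcodes changed the second count by over 1.5 times, values without them are given first for each gene group, with the value over all members after it. All ratios are log2 of PBM over control. Keeping the mixed barcodes, which hold 45.5% of the UMIs of control members, gave higher ratios for T cell genes such as Trac, at -0.14 without them and 0.67 with them. Among the genes printed, the direction turned in this way for Trac, Ptprc (-0.41 and 0.40), Cst7 (-0.40 and 0.41), Klra6 (-0.79 and 0.01), Stat2 (-0.15 and 0.17), Zbp1 (-0.24 and 0.27), Ctla2a (-0.66 and 0.06), Junb (-0.37 and 0.17) and the gate gene Cxcr3 (-0.75 and 0.08). It turned the other way for Igfbp4 (1.08 and -2.22) and Mki67 (0.16 and -1.28).

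The naive and stem-like list holds transcription factors, homing receptors and survival receptors of resting T cells. Of its 20 genes, 9 were at least 2-fold higher in PBM members and none lower, with a median log2 ratio of 0.99, and over all members 16 were higher and 1 lower, with a median of 1.59. Among the transcription factors, Tcf7 was at 381 CPM in PBM members against 185 CPM in control members (log2 ratio 1.04, 0.86 to 1.23), Lef1 at 255 against 106 CPM (1.27, 1.02 to 1.52), and Id3, an inhibitor of E proteins, at 109 against 35.3 CPM, with 38.8% of the control UMIs in 1 barcode. Ccr7, a lymph node homing receptor, had 179.7 CPM in PBM members and 42.5 CPM in control members (2.08, 1.70 to 2.48). It is also carried by B cells of the PBM library, at 158 CPM, and the free RNA estimate came to 23.4% of the PBM members' level. Dapl1, a gene known from resting CD8 T cells, stood out at 599.7 CPM in PBM members against 92.3 CPM in control members (2.70, 2.45 to 2.96), with 32.2 CPM in B cells. Klf2, S1pr1 and Il7r, which serve egress and survival, were closer, with log2 ratios of 0.39, 0.42 and 0.41. Over all members the ratios were 1.82 for Tcf7, 2.11 for Lef1, 2.73 for Ccr7, 3.56 for Dapl1 and 1.23 for Il7r. With free RNA subtracted, at the estimates of 40.6% for PBM and 19.7% for control, the median of the list was 0.96 over all members.

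Other genes that led the ranking without mixed barcodes are known from resting T cells or have no set place in these lists. Tmem108 stood at 58.1 CPM in PBM members and 15.9 CPM in control members, Itm2a, a transmembrane protein gene of developing and resting T cells, at 62.3 and 18.0 CPM, and Rgs10, a regulator of G protein signalling, at 282 and 77.1 CPM. Dtx1, which encodes the Notch pathway ligase Deltex, stood at 94.4 and 30.3 CPM, Nsg2 at 143 and 46.1 CPM, and Cmah, an enzyme of sialic acid synthesis, at 106 and 36.8 CPM. Il6ra, the interleukin 6 receptor, was at 65.2 CPM against 19.5 CPM. Over all members the ranking was headed by Ighg2c and Jchain, at 1163 and 67.0 CPM in PBM members and 0 in control members. Of these UMIs 98.0% and 97.4% lay in 1 barcode, the plasma-cell one, and without mixed barcodes 23 and 1.74 CPM remained.

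Genes of killing were lower in PBM members. Of the 17 cytotoxicity genes 12 were at least 2-fold lower without mixed barcodes and none higher, with a median log2 ratio of -1.67, and over all members 10 were lower and 1 higher, with a median of -1.35. Gzmb, the main apoptosis-inducing granzyme, had 8.38 CPM in PBM members and 499.5 CPM in control members (-5.90, -6.26 to -5.56), and Gzmk had 1.31 and 84.3 CPM (-6.01, -7.01 to -5.15). Gzma had 83.8 CPM in PBM members, 58.6% of it in 1 barcode, and 1945 CPM in control members (-4.54, -4.65 to -4.42). Gzmc, Gzmf and Gzmd had 1.63, 0.762 and 0.109 CPM in PBM members and 466, 235 and 99.5 CPM in control members, where 83.7%, 90.2% and 89.9% of the UMIs lay in 1 barcode. The difference was smaller for the pore-forming Prf1, at 75.2 and 205 CPM, for the granule protein gene Nkg7, at 717 and 1744 CPM, and for Cst7, at 154 and 203 CPM. Gzmm went the other way, at 63.8 CPM in PBM members against 33.9 CPM in control members (0.91, 0.48 to 1.37). Over all members the ratios were -5.13 for Gzmb, -3.70 for Gzma, -5.17 for Gzmk, -0.69 for Prf1, -0.47 for Nkg7 and 1.74 for Gzmm. Thinned to 2000 UMIs, 1.33% of PBM members (0.688 to 2.31) and 29.1% of control members (22.7 to 36.1) had a Gzmb UMI, against 1.06% and 3.48% of B cells at the same depth, so the PBM share is read as background. For Gzma the shares were 2.66% and 39.2% of members, against 3.13% and 16.5% of B cells. In the control library Gzmc was seen in 13.8% of members and 20% of B cells, and Gzmf in 7.41% and 6.96%, so these shares too are read as background. For Nkg7 these shares were 72.5% and 92.6% of members, against 8.61% and 10.4% of B cells.

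Secreted effector genes showed the same order. Of 13 tested cytokine and chemokine genes 9 were at least 2-fold lower in PBM members without mixed barcodes and none higher (median -1.53), and over all members 6 were lower and 1 higher (median -0.80). Ifng, which encodes interferon gamma, had 3.59 CPM in PBM members and 149 CPM in control members (-5.38, -5.95 to -4.84), with 33.3% of the control UMIs in 1 barcode. Ccl3 had 2.83 and 134 CPM and Ccl4 23.4 and 1229.7 CPM. Both encode inflammatory chemokines. Xcl1, which attracts cross-presenting dendritic cells, had 121 CPM in PBM members and 554 CPM in control members, a smaller gap (-2.20, -2.33 to -2.06). For all members these ratios were -4.61 for Ifng, -4.89 for Ccl4 and -1.40 for Xcl1. With barcodes thinned as for the granzymes, a Ccl4 UMI was seen in 27.0% of control members and 13.0% of control B cells. For Xcl1 these shares were 20.1% and 11.3%, for Ccl3 11.6% and 4.35%, and for Ifng 13.2% and 0%. In the PBM library they were 3.43% and 1.45% for Ccl4 and 13.8% and 1.79% for Xcl1. There Ccl3 was seen in 0.332% and 0.671%, and Ifng in 0.443% and 0.224%. The part of background in the chemokine differences was not tested. Ltb and Il16 lay close, at 531 against 483 CPM and 218 against 156 CPM. Ccl5, a gate gene given as a description, stood at 1721 CPM in PBM members and 7956 CPM in control members, and Cxcr3 at 109 and 185 CPM.

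The natural killer receptor list had the lowest median of the functional lists tested without mixed barcodes. It holds killer lectin receptors and also Tyrobp, Fcer1g, Fcgr3, Ncr1, Cd244a and Cd160, which are not lectin receptors. Of 22 tested genes 20 were at least 2-fold lower in PBM members without mixed barcodes and none higher (median -2.10), and over all members 12 were lower and 1 higher (median -1.40). The activating receptor gene Klrk1, which encodes NKG2D, had 19.5 CPM in PBM members and 271 CPM in control members (-3.80, -4.06 to -3.54). Klrc1, the inhibitory NKG2A chain, had 14.5 and 204 CPM (-3.82, -4.13 to -3.51), and its partner Klrd1, CD94, had 197 and 396 CPM (-1.01, -1.15 to -0.87). With mixed barcodes kept, the ratios were -2.97 for Klrk1, -3.0 for Klrc1 and -0.20 for Klrd1. Of the Ly49 genes, Klra7 had 25.9 and 69.2 CPM and Klra6 18.4 and 31.7 CPM, with 19.8% and 22.7% of the control UMIs in 1 barcode. Ly49 genes are near-identical copies, so reads may be split among them. Tyrobp and Fcer1g, adaptor chains that myeloid cells also express, had 57.7 and 30.0 CPM in PBM members and 683 and 582 CPM in control members, and the free RNA estimate came to 77.5% and 49.7% of the control levels. Ncr1, which defines natural killer cells, was low in both, at 2.07 and 19.5 CPM. Control natural killer cells had 416 CPM, but UMIs of Ncr1 and Klrb1c chose those cells, so that level is a description.

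Memory genes outside the gate were not of one kind. Without mixed barcodes 15 of 22 tested genes of the memory list were at least 2-fold lower in PBM members and none higher (median -1.05), and over all members 9 were lower and 4 higher (median -0.32, the value of all genes). Itgb1, an integrin chain of memory cells, had 71.2 CPM in PBM members and 369.8 CPM in control members (-2.38, -2.55 to -2.21). Il2rb, the shared beta chain of the interleukin 2 and 15 receptors, had 197 and 432 CPM (-1.14, -1.27 to -1.0), and Il18rap had 30.4 and 103 CPM (-1.76, -2.06 to -1.46). Eomes, a T-box factor of memory cells, stood the other way at 67.5 CPM in PBM members against 38.2 CPM in control members (0.82, 0.41 to 1.25), as did the marker Sidt1 (0.77, 0.53 to 1.01). Samd3 and Cd27 differed less, with log2 ratios of 0.39 (-0.08 to 0.89) and 0.24 (0.06 to 0.42). Tbx21, the T-box factor of effector cells, had 30.9 CPM in PBM members and 83.6 CPM in control members (-1.44, -1.75 to -1.11). With mixed barcodes kept, the ratios were -2.09 for Itgb1, -0.35 for Il2rb, 1.60 for Eomes, 1.25 for Samd3 and -0.61 for Tbx21, and for Id2, below, -2.78. Of the 16 tested effector transcription factors 11 were at least 2-fold lower without mixed barcodes and none higher (median -1.65), and 9 were lower and none higher over all members (median -1.28). Id2 had 61.1 and 711 CPM (-3.54, -3.69 to -3.39), Zeb2 3.05 and 53.3 CPM, and Rora 4.24 and 68.5 CPM.

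Exhaustion genes outside the gate were also lower in PBM members, although no member of either library had a Pdcd1, Lag3 or Havcr2 UMI. Of 15 tested genes 9 were at least 2-fold lower and 1 higher without mixed barcodes (median -1.47), and 7 lower and 2 higher over all members (median -0.90). Bhlhe40 had 2.18 CPM in PBM members and 59.8 CPM in control members, Nr4a2 5.66 and 25.9 CPM, and the ectoenzyme gene Entpd1 2.28 and 24.5 CPM. Tox, a factor of exhausted cells, was at 45.3 CPM in PBM members and 24.5 CPM in control members (0.89, 0.38 to 1.43), and Btla at 27.7 and 11.5 CPM. Tissue residency and chemokine receptor genes were mixed, with 3 of 21 at least 2-fold higher and 9 lower (median -0.80, and -0.18 over all members). Cxcr6 had 45.9 and 283 CPM, the collagen-binding integrin gene Itga1 0.762 and 38.9 CPM and Ccr2 15.0 and 144 CPM. Among cytokine receptors, 2 of 21 were at least 2-fold higher and 7 lower (median -0.47, and -0.13 over all members). Il12rb2 had 1.20 CPM in PBM members and 37.5 CPM in control members, Ifngr1 73.1 and 304 CPM and Il2ra 3.05 and 30.3 CPM.

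Interferon-stimulated genes were higher in PBM members by an amount that depended on the mixed barcodes. Without them 7 of 30 tested genes were at least 2-fold higher and none lower (median 0.58), and over all members 21 were higher and none lower (median 1.19). Ifi27l2a, a small interferon-induced protein gene, had 968 CPM in PBM members and 308 CPM in control members (1.65, 1.51 to 1.79), and Rtp4 had 59.3 and 18.7 CPM (1.66, 1.09 to 2.29). Isg15, a ubiquitin-like modifier, had 115 and 77.8 CPM (0.56, 0.27 to 0.86), Ifit3 48.5 and 33.2 CPM (0.55, 0.11 to 1.02), and the RNA sensor gene Oas3 32.3 and 16.6 CPM (0.96, 0.35 to 1.64). Over all members the ratios were 2.14 for Ifi27l2a, 1.90 for Rtp4, 1.05 for Isg15, 1.32 for Ifit3 and 1.70 for Oas3. For Isg15 and Ifit3 33.3% and 30.4% of the control UMIs lay in 1 barcode. The same genes were as high in naive-like cells of the PBM library, at 129 CPM for Isg15, 54.3 for Ifit3 and 1034 for Ifi27l2a, and Ifi27l2a was at 1201 CPM in B cells. Free RNA was estimated at 27.0% of the PBM members' Ifi27l2a and 18.2% of their Isg15. Stat2 and Zbp1 showed ratios of -0.15 (-0.74 to 0.48) and -0.24 (-0.55 to 0.07).

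Promoters of 3 of these genes are shown because the group was higher in PBM members with none of its genes 2-fold lower. Many of its members also carry the interferon-stimulated response element, the site of the STAT and IRF factors that type I interferon activates. No ranking chose these 3, and without mixed barcodes none of them was 2-fold higher. The 200 bases before the start of each gene come from RefSeq on GRCm38.p6, on the gene's strand, and capitals mark GAAANNGAAA or its reverse complement TTTCNNTTTC, where matches may overlap. Isg15 lies at chr4:156200819-156201018 on the minus strand, Ifit3 at chr19:34583329-34583528 on the plus strand and Oas3 at chr5:120777660-120777859 on the minus strand.
Isg15: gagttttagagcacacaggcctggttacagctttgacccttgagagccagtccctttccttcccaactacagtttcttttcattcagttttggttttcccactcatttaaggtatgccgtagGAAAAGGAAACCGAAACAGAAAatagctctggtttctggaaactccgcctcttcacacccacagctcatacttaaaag
Ifit3: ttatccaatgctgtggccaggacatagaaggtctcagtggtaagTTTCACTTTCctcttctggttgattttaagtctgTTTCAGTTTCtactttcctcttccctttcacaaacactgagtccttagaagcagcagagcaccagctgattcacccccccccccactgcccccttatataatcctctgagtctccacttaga
Oas3: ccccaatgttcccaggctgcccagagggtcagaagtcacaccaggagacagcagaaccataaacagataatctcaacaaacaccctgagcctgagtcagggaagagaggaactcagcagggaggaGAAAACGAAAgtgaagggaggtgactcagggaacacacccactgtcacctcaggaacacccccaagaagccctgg
The element occurs 3 times with overlap before Isg15, first at -78 from the start, 2 times before Ifit3, first at -156, and 1 time before Oas3, at -75. Of the 32 interferon genes 25 had a promoter in the reference table, and 16 of these (64%) held the motif in the 250 bases before a start, against 3.41% of all other genes. A match describes the letters only.

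Glycolysis and lipid synthesis genes were lower in PBM members with and without mixed barcodes, while cell cycle genes were 2-fold lower as a group only with them. Of the glycolysis and hypoxia genes 13 of 21 were at least 2-fold lower in PBM members and 1 higher without mixed barcodes (median -1.14), against 16 of 23 lower over all members (median -1.92). Gapdh had 643 CPM in PBM members and 1380.3 CPM in control members (-1.10, -1.18 to -1.03), Aldoa 298 and 763 CPM, Tpi1 53.5 and 185 CPM, and the lactate exporter gene Slc16a3 1.63 and 45.4 CPM. Pdk1, a brake on pyruvate oxidation, was at 59.4 CPM in PBM members and 27.4 CPM in control members (1.12, 0.64 to 1.63). Cholesterol and fatty acid synthesis genes had a median of -1.27, with 11 of 19 lower, against -2.45 with 15 lower over all members. For the G2 and M phase genes the median was -0.44, with 1 of 25 lower, against -1.50 with 21 lower over all members. For the S phase genes it was -0.30, with 1 of 22 lower, against -1.24 with 16 lower. Without mixed barcodes these shares lay under the 11.4% of all genes. Mki67, the proliferation marker, was at 34.6 CPM in PBM members and 31.0 CPM in control members without mixed barcodes (0.16, -0.30 to 0.65), and at 34.8 and 84.5 CPM with them. The medians of T cell receptor signalling and MHC class I genes turned sign with the mixed barcodes, at 0.53 and 0.11 with them and -0.20 and -0.33 without them, and no gene of these lists was 2-fold lower in either set.

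Over all members the control side of the gene ranking was led by matrix genes and others of the mixed barcodes. Sparc had 1.08 CPM in PBM members and 581 CPM in control members, Bgn 0.860 and 316 CPM and Mt2 0.323 and 359 CPM, and without mixed barcodes the control levels were 23.8, 15.1 and 45.4 CPM. Sox9, Mmp2, Col3a1, Crabp2, Col1a2, Emp1, Pcolce and Ahnak2 completed that side beside Gzmd. Without mixed barcodes the control side was led by Gzmd, Gzmf, Gzmc, Ifitm1, Lgals3, Gzmk, Gzmb, Ifitm2, Ccl4, Ccl3, Ifng and Cish. For Gzmd, Gzmf and Gzmc most control UMIs lay in a single barcode, so their rank does not describe control members at large. Ifitm1, a membrane protein gene of antiviral defence, had 1.96 CPM in PBM members and 444 CPM in control members (-7.82, -8.59 to -7.15), Lgals3, which encodes galectin 3, 11.1 and 879 CPM, and Cish, a cytokine-induced inhibitor of STAT5 signalling, 2.50 and 94.4 CPM. Macrophages express Lgals3 strongly, and the free RNA estimate came to 49.2% of its level in control members and to 15.7% for Ifitm1.

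**Figure D3:**
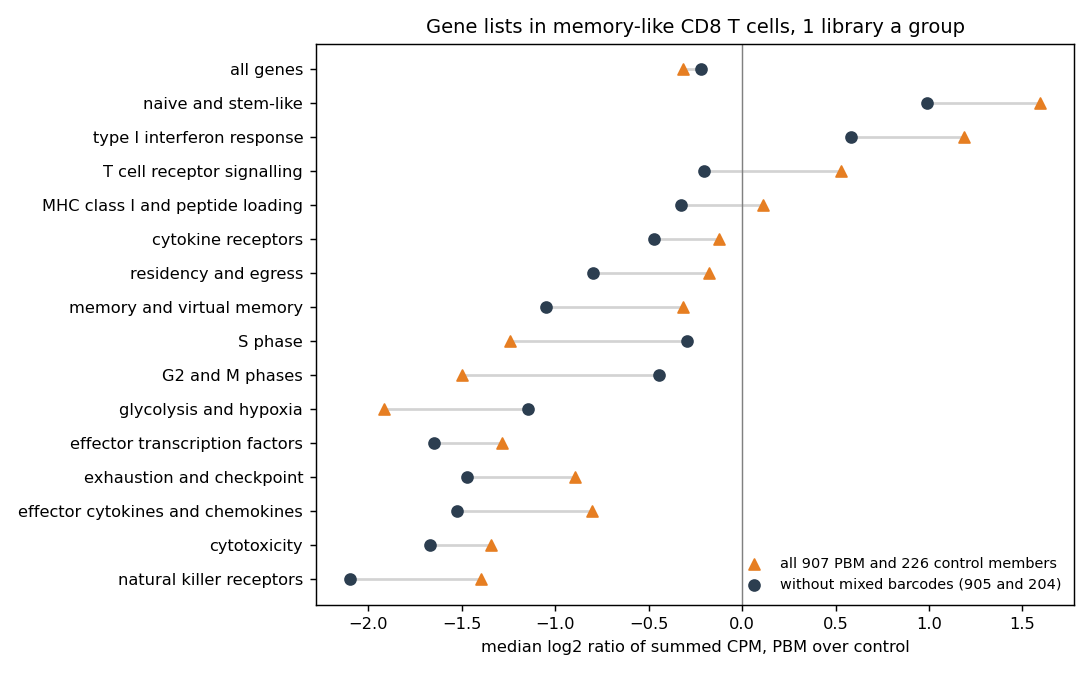
Median log2 ratio of summed CPM, PBM over control, for all genes tested and 15 gene lists in memory-like CD8 T cells. Triangles are all members (907 PBM and 226 control), circles members without mixed barcodes (905 and 204). The naive and stem-like list stands at 1.59 and 0.99, killer receptors at -1.40 and -2.10, and the G2 and M phase list moves from -1.50 to -0.44.

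Within the PBM library the members were set beside 1048 naive-like CD8 cells, gated on the same T cell conditions with at least 2 UMIs of Lef1, Dapl1 and Ccr7 and fewer than 2 of Ly6c2 and of Cxcr3 with Ccl5. The gates chose both populations, so this is a description. The control library had 24 such cells, too few for a level. Without mixed barcodes 521 of 10874 genes were at least 2-fold higher in members (4.79%) and 202 lower (1.86%), and with them 569 of 10918 were higher (5.21%) and 203 lower (1.86%), a background to the counts that follow. Killer receptors were at least 2-fold higher for 17 of 20 tested genes (median log2 ratio, memory-like over naive-like, 2.34), memory genes for 13 of 22 (1.10) and cytotoxicity genes for 5 of 14 (0.79). Markers of other cells were higher in members as well, with natural killer cell markers at least 2-fold higher for 8 of 10 (1.69), macrophage and monocyte markers for 4 of 5 tested (1.70), gamma-delta and innate-like T cell markers for 3 of 5 (1.26) and B cell markers for none of 9 (-0.03). Their part in the result was not tested. Against all other CD8 T cells of that library, without mixed barcodes, 274 of 11660 genes were at least 2-fold higher in members and 298 lower. Killer receptors were then higher for 8 of 22 and lower for 2 (median 0.64), and memory genes higher for 7 of 22 (0.75). Cytotoxicity genes were higher for 1 of 16 and lower for 3 (0.18), and natural killer cell markers higher for 2 of 10 and lower for 1 (-0.32). Gzmm, the granzyme that leads the ranking, was at 63.8 CPM in members and 2.70 CPM in naive-like cells (4.56, 3.87 to 5.35), Ctla2a, a protease inhibitor gene, at 342 and 28.1 CPM (3.60), and Xcl1 at 121 and 11.1 CPM (3.44). Hopx, a homeodomain protein gene, was at 101 and 21.7 CPM, Anxa2 at 68.5 and 15.7 CPM, Il18rap at 30.4 and 2.86 CPM and Eomes at 67.5 and 16.4 CPM. Naive and stem-like genes were nearly level with naive-like cells, with 1 of 20 at least 2-fold lower and a median of -0.27. Lef1, Dapl1 and Ccr7, which chose the naive-like cells, are among these 20 genes, so this count is a description too. Il7r was at 200.3 and 142 CPM, while Igfbp4 was at 56.5 and 175 CPM (-1.63, -1.79 to -1.48). On the lower side, Ccr9, a gut-homing chemokine receptor gene, was at 12.3 CPM in members and 95.1 CPM in naive-like cells (-2.95, -3.25 to -2.66), followed by Rgcc at 39.1 and 132 CPM, Actn2 at 18.2 and 52.2 CPM and Ramp1 at 30.2 and 76.7 CPM. Of the cell cycle genes, 20 of 24 G2 and M phase genes were at least 2-fold higher in members than in naive-like cells (median 2.62). Mki67 was at 34.6 and 4.76 CPM and Birc5 at 31.6 and 3.65 CPM. Against all other CD8 T cells 6 of 25 were at least 2-fold higher (0.70). Naive-like cells had a median of 5662.5 UMIs, at most 17481, against 9076 and at most 98426 in members. Upper limits on UMIs in the naive-like gate can leave out deep cells, and the part of this in the cell cycle difference was not tested. After thinning to 2000 UMIs, 3.54% of members (2.44 to 4.97) and 1.36% of naive-like cells had a Mki67 UMI, against 0.951% of B cells.

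Within the control library the members were set beside 597 exhausted-effector CD8 cells, gated with at least 2 UMIs of Pdcd1, Lag3 and Havcr2, of which 583 are not mixed. The PBM library had 21 such cells, too few for a level. Without mixed barcodes 421 of 10615 genes were at least 2-fold higher in members (3.97%) and 1040 lower (9.8%), and with them 1166 of 11549 were higher (10.1%) and 802 lower (6.94%). Naive and stem-like genes were at least 2-fold higher in members for 14 of 20 (median log2 ratio, memory-like over exhausted-effector, 2.22). S1pr1 was at 85.8 CPM in members and 8.88 CPM in exhausted-effector cells (3.27, 2.80 to 3.76), Tcf7 at 185 and 19.5 CPM (3.25, 2.93 to 3.57) and Klf2 at 295 and 45.1 CPM (2.71, 2.49 to 2.93). Klra7 was at 69.2 and 6.30 CPM, Cd7 at 234 and 44.4 CPM, and Itga4, an integrin chain for vessel entry, at 117 and 22.4 CPM. Cd7 and Itga4 belong to the memory list, of which 4 of 23 genes were at least 2-fold higher and none lower (median 0.13). With mixed barcodes kept, 4 memory genes were higher and 8 lower (median -0.34). Natural killer cell markers were at least 2-fold higher in members for 6 of 10 (median 1.10), gamma-delta and innate-like T cell markers for 3 of 3 tested of 10 (3.41), and macrophage and monocyte markers for none of 9 (-0.05), while CD4 and regulatory T cell markers were lower for 5 of 7 (-1.50). Their part in the result was not tested. Effector cytokine genes were at least 2-fold lower for 8 of 14 (median -1.31) and exhaustion genes for 10 of 17 (-1.11). Ccl1 was at 25.9 CPM in members and 638 CPM in exhausted-effector cells (-4.62, -5.14 to -4.15), Nrgn at 38.2 and 415 CPM, Rgs16 at 18.7 and 169 CPM, Nr4a2 at 25.9 and 138 CPM, Ccl3 at 134 and 1069.8 CPM and Ifng at 149 and 653 CPM. Cytotoxicity genes were split, with 4 of 17 at least 2-fold higher and 6 lower (median -0.43). Gzma was at 1945 CPM in members and 672 CPM in exhausted-effector cells (1.53, 1.46 to 1.60), while Gzmb was at 499.5 and 1010.2 CPM (-1.02, -1.13 to -0.90) and Nkg7 at 1744 and 2379.6 CPM. G2 and M phase genes were at least 2-fold lower for 15 of 25 (median -1.09). With mixed barcodes the medians were 1.60 for naive and stem-like genes, -1.85 for effector cytokines, -1.25 for exhaustion, -1.06 for cytotoxicity and -0.09 for G2 and M phase genes, so the difference in cell cycle genes was present only without them.

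**Figure D4:**
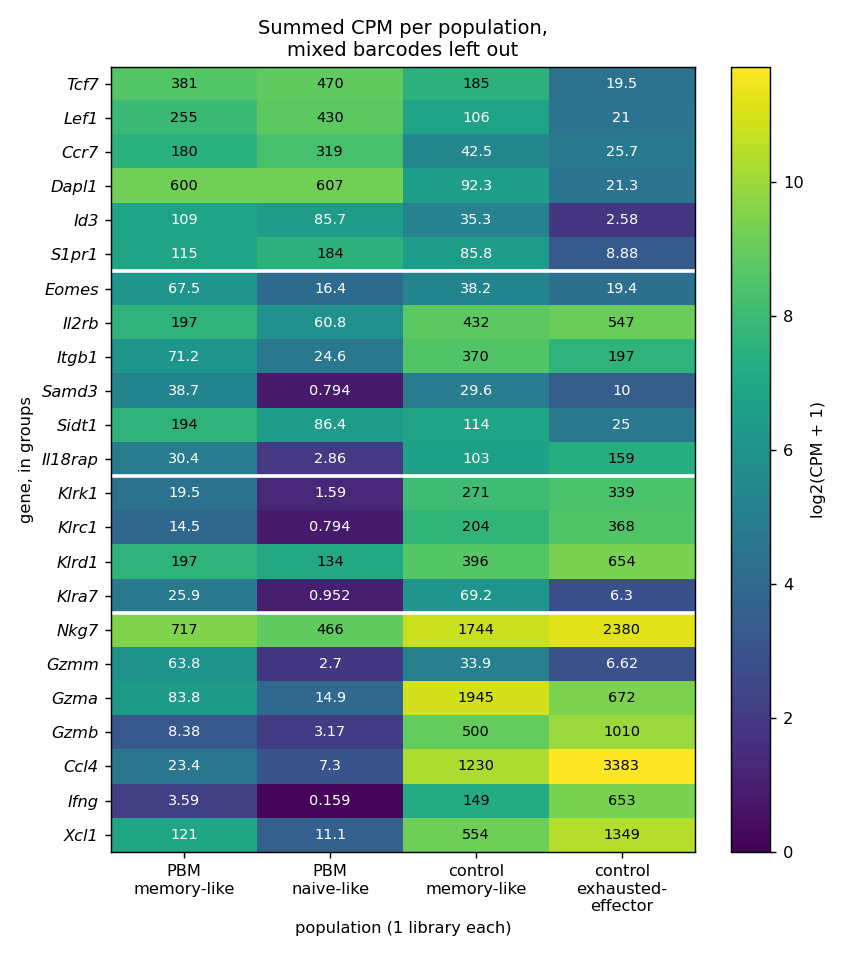
Summed CPM of 23 genes in memory-like and naive-like CD8 cells of the PBM library and in memory-like and exhausted-effector CD8 cells of the control library, mixed barcodes left out, with colour as log2(CPM + 1). Tcf7, at 381 and 469.9 CPM in the PBM populations, is at 185 CPM in control members and 19.5 CPM in exhausted-effector cells, and Gzmb is at 8.38 CPM in PBM members and 499.5 CPM in control members.

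Members of a library were not alike, and bands of Ccl5 and of Ly6c2, both gate genes, describe how they differ. In the PBM library 362 of 905 members (40.0%) had 10 or more Ccl5 UMIs, 520 had 1 to 9 and 23 had none and were gated by Cxcr3 alone. In the control library 154 of 204 (75.5%) had 10 or more and 50 had 1 to 9. These PBM bands had nearly the same median depth, 9288 and 8980 UMIs. PBM members with 10 or more Ccl5 UMIs had 60.2 CPM of Klra7, against 3.21 CPM in members with 1 to 9, 110.1 against 30.8 CPM of Gzmm, 50.1 against 18.3 CPM of Tbx21 and 279 against 141 CPM of Il2rb. They had less Dapl1, at 313 against 775 CPM, and less Ccr7, at 135 against 208 CPM. Eomes, at 74.9 against 64.2 CPM, and Sidt1, at 198 against 191 CPM, lay close between the bands. In the control library the same bands had 31.0 and 250.1 CPM of Dapl1, 13.0 and 92.8 CPM of Id3, and 1635 and 186 CPM of Ccl4, at median depths of 5150 and 5437 UMIs. Within the band of 10 or more Ccl5 UMIs the PBM members had 313 CPM of Dapl1 against 31.0 CPM in control members, and 14.4 against 551 CPM of Gzmb. This band does not match the libraries, since its Ccl5 level was 3840 CPM in PBM and 10821 CPM in control members. Its median depths of 9288 and 5150 UMIs differ as well.

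**Figure D5:**
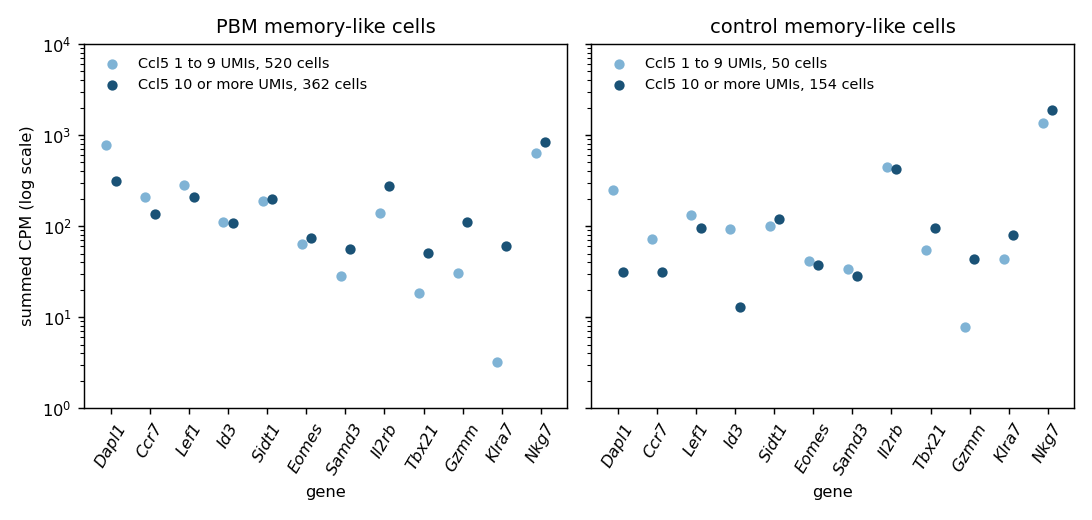
Summed CPM, on a log axis, of 12 genes in memory-like CD8 T cells with 1 to 9 Ccl5 UMIs (light) and with 10 or more (dark), PBM at left and control at right, mixed barcodes left out. In PBM members the bands stand apart at Klra7, with 60.2 CPM at 10 or more Ccl5 UMIs and 3.21 CPM at 1 to 9.

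By Ly6c2, 57 PBM members (6.30%) had 2 UMIs, 61 had 3 to 4, 140 had 5 to 9 and 647 (71.5%) had 10 or more, and in the control library these numbers were 23, 29, 64 and 88 (43.1%). The bands differ in depth, with medians of 8225, 6326, 5549 and 10259 UMIs in the PBM library. From the lowest to the highest band of the PBM library Xcl1 stood at 32.3, 28.4, 48.5 and 142 CPM, and Mki67 at 2.02, 8.72, 5.38 and 42.1 CPM. Itga4 ran from 70.7 and 118 CPM in the lower bands to 81.8 and 42.7 CPM in the upper ones. Both Cxcr3 and Ccl5 were seen in 477 PBM members (52.7%) and 114 control members (55.9%), and Ccl5 without Cxcr3 in 405 and 90.

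Antigen receptor genes gave a readout that the gate did not use. A beta chain V segment was seen in 300 of 905 PBM members and 42 of 204 control members without mixed barcodes. Trbv12-2 was the most frequent, in 65 of 300 PBM members (21.7%, 17.1 to 26.8) and 20 of 42 control members (47.6%, 32.0 to 63.6). It was seen in 50 of 277 naive-like cells of the PBM library (18.1%, 13.7 to 23.1) and 55 of 153 exhausted-effector cells of the control library (35.9%, 28.4 to 44.1). Of the alpha chain segments, Trav13-4-dv7 was seen in 9 of 29 control members with an alpha segment (31.0%, 15.3 to 50.8) and in 42 of 144 control exhausted-effector cells (29.2%, 21.9 to 37.3). In PBM members the most frequent alpha segment was Trav3-3, in 20 of 168 (11.9%, 7.43 to 17.8). Exhausted-effector counts here include 14 mixed barcodes. Segments are counted here from 3′ reads, near-identical copies can share reads, and 47 PBM and 3 control members carried more than 1 beta segment.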

How the data were processed

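Single-cell RNA was measured by 10x 3′ sequencing in 1 PBM and 1 control library. The authors deposited UMI counts per gene and barcode. Cell Ranger 7.2.0 and the mm10 build are named per the submitters' processing notes, and PISA 0.12 per the file headers; which of them made the deposited counts is not given in the sources used here. No further normalization is stated. Barcodes were used as deposited, with no added filter. Counts were summed over the gated cells of a library and divided by their total (CPM, per 1000000 UMIs), with exact Poisson intervals at 95% for levels and Clopper-Pearson intervals for shares, using Python 3.11.15, numpy 2.4.6 and scipy 1.17.1. Genes with at least 20 UMIs over the libraries compared were tested against a 2-fold difference, with a floor of 3 counts for a level of 0. The ratio code was checked on simulated counts. Doublets were called with Scrublet in scanpy 1.11.5, which marked 880 PBM and 109 control barcodes (6.30% and 0.970%), and calls were kept in the main values. Free RNA was estimated from 13 genes, with the whole library's profile as its composition. Named genes were the 12 with the largest ratio each way, with at least 100 UMIs, at least 50 CPM in one library, intervals that did not overlap and under 50% free RNA, leaving out gate genes, ribosomal and mitochondrial genes and unnamed gene models. Against naive-like and exhausted-effector cells the rule asked for both libraries, but only 1 library each held 50 such cells, so the 10 genes each way were ranked in that library, a choice made after the data were seen. Members of the gene lists could also be named. Some genes that the rule or the lists hold are not reported here. Members and lists were chosen with earlier results of these data known. Alternatives varied the gate, depth, scaling, minimum count, averaging, doublets and free RNA. Leaving out mixed barcodes, the limit of 25000 UMIs and thinning to 1000 UMIs were chosen after seeing the data.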

Additional observations from a re-analysis of the deposited data

How the results depend on the processing

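No paired analysis was possible because each group is 1 library. The PBM minus control difference in the share of all barcodes was 4.49 percentage points, 5.57 with no limit on C1q and B cell genes, 0.47 with cells thinned to 2000 UMIs and -0.071 at 1000 UMIs. For the share of CD8 T cells it was 9.80 points, -5.26 at 2000 UMIs and -4.68 at 1000 UMIs. The number of genes tested differed between the alternatives, so shares are given beside the counts. Genes at least 2-fold higher in PBM members numbered 766 of 11324 (6.76%), against 176 of 3559 (4.95%) after thinning to 2000 UMIs. They numbered 1267 (11.2%) with median-of-ratios scaling, 1184 (10.5%) without ribosomal and mitochondrial genes in the total and 337 of 10166 (3.31%) with free RNA subtracted. Genes at least 2-fold lower numbered 2581 (22.8%), against 1582 of 9139 (17.3%) with barcodes of suffix N 1 and 538 of 3559 (15.1%) after thinning to 2000 UMIs. With no minimum count they numbered 4964 of 15942 (31.1%), and with free RNA subtracted 4455 of 10166 (43.8%). Without mixed barcodes they numbered 1192 of 10478 (11.4%), and with barcodes up to 25000 UMIs 1234 of 10303 (12%). The cytotoxicity median, -1.35, was -1.88 with suffix N 1, -1.83 thinned, -1.75 as a mean of per-cell CPM and -1.76 up to 25000 UMIs. The naive and stem-like median, 1.59, was 1.27 with at least 3 Ly6c2 UMIs, 1.91 with median-of-ratios scaling, 1.87 without ribosomal and mitochondrial genes, 0.95 per cell, 0.96 with free RNA subtracted, 0.99 without mixed barcodes and 0.82 up to 25000 UMIs. The interferon median, 1.19, was 0.35 thinned, 0.71 per cell, 0.77 with free RNA subtracted, 0.58 without mixed barcodes and 0.50 up to 25000 UMIs. The glycolysis median, -1.92, was -1.57 with at least 3 Ly6c2 UMIs, -1.29 thinned, -1.60 with median-of-ratios scaling, -1.64 without ribosomal and mitochondrial genes, -1.31 per cell, -1.14 without mixed barcodes and -1.04 up to 25000 UMIs. Genes at least 2-fold higher in members than in exhausted-effector cells of the control library numbered 1166 of 11549 (10.1%), and 421 of 10615 (3.97%) without mixed barcodes. The causes were not tested. For the genes that led the PBM and control ranking, 346 of 503 values under these alternatives lay within the main interval and 157 beyond it, none with a turned direction; other printed genes did turn, as the report names. Depth limits the control members, of which 204 without mixed barcodes held 1387382 UMIs, and no alternative supplies a second library.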

Other observations

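Activation and immediate early genes, which T cells switch on after contact with antigen, were lower in PBM members. Without mixed barcodes 10 of 16 tested activation and costimulation genes were at least 2-fold lower and 1 higher (median log2 ratio of PBM over control -1.27, and -0.89 over all members). Cd82 had 65.6 CPM in PBM members and 154 CPM in control members, and Tnfrsf1b, a receptor for tumour necrosis factor, 23 and 95.1 CPM. Of 18 tested immediate early genes 9 were at least 2-fold lower and none higher (median -0.91, and -0.65 over all members). Over all genes without mixed barcodes 11.4% were at least 2-fold lower and 6.19% higher. Dusp2, a phosphatase gene induced by signalling, had 105 and 184 CPM, and Junb 426 and 551 CPM.

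Of 14 tested genes of the Bcl2 family, which govern survival, 7 were at least 2-fold lower in PBM members and 1 higher without mixed barcodes (median -1.0, and -0.84 over all members). Bcl2a1b had 28.0 CPM in PBM members and 221 CPM in control members, and the anti-apoptotic gene Bcl2 98.8 and 177 CPM. Bcl2a1b and Bcl2a1d are near-identical copies, so reads may be split between them. Mitochondrial oxidation genes differed little, with 1 of 24 at least 2-fold lower (median -0.25), and heat shock genes had 1 of 12 lower (median -0.07). Guanylate-binding and immunity GTPase genes, induced by interferon gamma, had 2 of 14 at least 2-fold higher and 2 lower (median -0.40). Metallothionein and NRF2 genes had 5 of 13 lower (median -0.59, and -1.30 over all members), and TGF-beta pathway genes 2 of 13 lower (median -0.57). Over all genes without mixed barcodes 6.19% were at least 2-fold higher and 11.4% lower. The 2 of 14 GTPase genes and 2 of 13 TGF-beta genes that were lower lie near that share, so these counts say nothing particular about those lists.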
